A study of Caenorhabditis elegans with 8 samples.

Results

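Mutants of prde-1 and prg-1 were set against each other by the piRNAs that still gave reads in them. The comparison asks what remains of the piRNA pool when its transcription is lost and what remains when its binding protein is lost. A piRNA was included when it had a value above 0 in at least 1 of the 4 libraries of these genotypes, which held for 314 of the 9742 listed piRNAs. Small RNAs of whole Caenorhabditis elegans worms had been sequenced in 8 libraries, with 2 each of WT, prde-1, prg-1 and kin-3. The prde-1, prg-1 and WT worms were untreated, and kin-3 worms, used here only for side values, were cultured with 500 µM IAA (auxin). The labels give the genotypes without an allele, and give no age or number of worms. Messenger RNA was not measured, so neither the mutated genes nor the tissue could be checked against their own transcripts.

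In C. elegans, piRNAs (21U-RNAs) are 21 nt germline small RNAs that begin with U, and most of their genes lie in clusters on chromosome IV. Each gene is transcribed as its own short precursor, and PRDE-1 belongs to the nuclear complex that binds upstream of these genes and is needed for their transcription. The precursors are trimmed and loaded into PRG-1, a Piwi-class Argonaute, without which mature piRNAs do not accumulate. The prde-1 mutant is thus blocked at transcription and the prg-1 mutant at binding.

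Levels are in RPM, reads of a piRNA per 1e6 reads of the library total that the authors scaled to. That total was 5337646 and 5608712 reads in the prde-1 libraries and 969718 and 699884 reads in the prg-1 libraries, so a single read was worth 0.187 and 0.178 RPM in prde-1 but 1.03 and 1.43 RPM in prg-1. Listed piRNAs received 2057 and 2257 reads in prde-1 and 222 and 156 reads in prg-1. A piRNA with no read could have stood at up to 0.274 RPM in prde-1 and 1.80 RPM in prg-1, the level of 3 reads in the pooled libraries. In whole-worm RNA, fewer germline cells and fewer piRNAs per cell cannot be told apart.

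Of the 314 piRNAs, 22 had reads in both genotypes, 205 in prde-1 alone and 87 in prg-1 alone. Most rested on very few reads: 238 had a single read over the 4 libraries, 50 had 2 or 3, and 26 had more. Only 30 of the 227 piRNAs seen in prde-1 (13.2%) and 12 of the 109 seen in prg-1 (11.01%) had a read in both libraries of that genotype. Just inside the rule, a piRNA with a single read stood at 0.178 to 1.43 RPM in its library, and just outside it at 0. The prde-1 libraries were also the deeper ones. Thinned to 699884 reads, the expected number of piRNAs with a read was 32.0 and 30.5 in the prde-1 libraries and 57.5 and 46.0 in the prg-1 libraries. Over all loci the prg-1 libraries thus lay above those of prde-1 at equal depth, by means of 51.8 ± 8.15 against 31.2 ± 1.02 (SD, n = 2 each; exact permutation p = 0.333, two-sided, the smallest that 2 against 2 libraries allow). On chromosomes other than IV the order was the opposite, with 14.3 and 13.9 piRNAs in prde-1 and 10.98 and 9 in prg-1, and on chromosome IV without 21ur-1430 it was 16.7 and 15.6 against 45.6 and 36.0.

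The residue in prde-1 was dominated by a locus that is also a microRNA gene. 21ur-1430 (chromosome IV 5566428 to 5566448, plus strand) lies within the annotated precursor of mir-790 on the same strand. It stood at 217.5 and 234 RPM in prde-1 and at 16.5 and 22.9 RPM in prg-1, and the genotypes did not overlap. It held 57.3% of all piRNA reads in prde-1 (95% exact binomial interval 55.8% to 58.8%) and 8.47% in prg-1 (5.86% to 11.7%). The pooled ratio of prde-1 to prg-1 was 11.8 (95% counting interval 8.32 to 17.3). In WT it stood at 11.9 and 7.66 RPM, below the libraries of both mutants.

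Which mutant had the higher total turned on this locus. Listed piRNAs summed to 385 and 402 RPM in prde-1 and to 229 and 223 RPM in prg-1, a ratio of 1.74 for prde-1 over prg-1. Without 21ur-1430 the sums were 168 and 169 RPM in prde-1 and 212 and 200.03 RPM in prg-1, and the order turned, with a ratio of 0.816 (pooled counting interval 0.724 to 0.914). Neither pair of genotypes overlapped (exact permutation p = 0.333 each, the smallest possible). Rescaling by TMM, chosen for these sums after seeing the data, divides prde-1 levels by 0.186 and 0.150 and those of prg-1 by 1.16 and 1.24. It gave a ratio of 5.89 without 21ur-1430, so the order without this locus holds only for the authors' scaling.

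**Figure D1:**
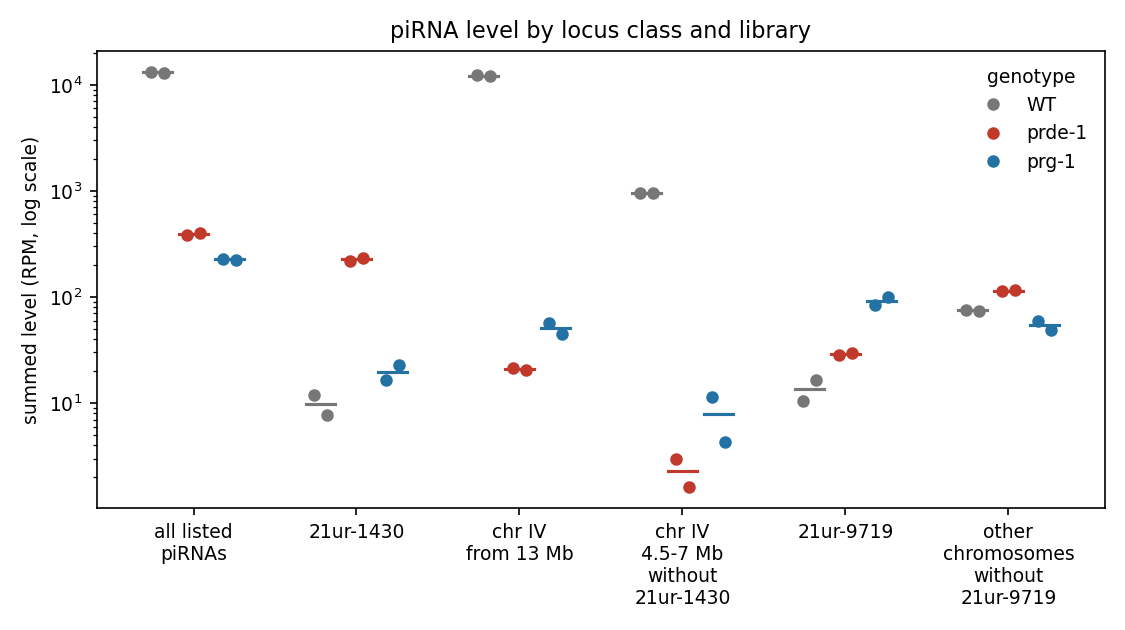
Summed level in RPM (log axis) of all listed piRNAs, of 2 single loci and of 3 groups of loci in the WT, prde-1 and prg-1 libraries. Each point is a library and each bar the mean of 2; prde-1 lies above prg-1 for 21ur-1430 (226 against 19.7 RPM) and below it on chromosome IV from 13 Mb (21.02 against 50.5 RPM), where TMM rescaling would turn the order.

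On chromosome IV, where the piRNA clusters lie, the residue was smaller in prde-1 than in prg-1 by the authors' scaling. Without 21ur-1430 it summed to 25.3 and 23.2 RPM in prde-1 and to 68.1 and 51.4 RPM in prg-1, and the libraries did not overlap. These means are 0.185% and 0.457% of the WT level of 13084 RPM. The level in prg-1 was 2.47-fold that in prde-1 (59.7 ± 11.8 against 24.2 ± 1.495 RPM, SD, n = 2; pooled ratio 2.52, 95% counting interval 1.99 to 3.18; exact permutation p = 0.333, the smallest possible), whereas TMM rescaling turned the ratio of prde-1 over prg-1 from 0.406 to 2.90. The share of piRNA reads does not depend on that scaling, though 21ur-1430 lowers it in prde-1. Chromosome IV without 21ur-1430 held 6.56% and 5.76% of piRNA reads in prde-1 and 29.7% and 23.1% in prg-1. With 21ur-1430 also left out of the total, it held 265 of 1842 pooled reads in prde-1 and 102 of 346 in prg-1, a smaller gap.

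Values along the large cluster are pooled levels by the authors' scaling. From 13 to 14 Mb the pooled level in prg-1 was 5.36-fold that in prde-1 (95% counting interval 1.96 to 14.2), from 14 to 15 Mb 2.78-fold (1.77 to 4.29) and from 15 to 16 Mb 3.28-fold (2.02 to 5.20). From 16 to 17 Mb it was 1.35-fold (0.718 to 2.37) and from 17 Mb on 0.874-fold (0.0970 to 3.76), so that no difference was detectable at this depth in these last intervals. The difference between intervals was not tested, and the first of them rests on 11 prde-1 and 9 prg-1 reads. In the small cluster at 4.5 to 7 Mb, without 21ur-1430, prde-1 stood at 3.00 and 1.60 RPM and prg-1 at 11.3 and 4.29 RPM, a pooled ratio of 3.67 (1.76 to 7.34) on 25 and 14 reads. The ratio of means, 3.40 for prg-1 over prde-1, was 1.86 without prg-1 replicate 1. On the rest of chromosome IV prde-1 had 10 reads and prg-1 had 2 (means of 0.910 and 1.43 RPM), and the libraries overlapped.

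These chromosome IV reads were thinly spread. Among the 281 piRNAs concerned, the highest had 12 pooled reads in prde-1, against a highest of 2 in prg-1, and 7 had more than 3 reads in prde-1. A pooled read is worth 0.0914 RPM in prde-1 and 0.599 RPM in prg-1, so these read numbers do not compare levels. The highest in prde-1, 21ur-6729 (minus strand, outside coding genes), had 12 prde-1 reads, no prg-1 read and 1 WT read. The listed piRNA cel-piR-15414 starts 1 nt beside it on the same strand and had 6 prde-1 reads, no prg-1 read and 3 WT reads. Among abundant WT piRNAs, 21ur-6307, with 459 WT reads, had 1 read in each mutant, as had 21ur-3502 with 147 WT reads. For 21ur-6307 this is a mean of 0.0937 RPM in prde-1 and 0.516 RPM in prg-1. 21ur-5101, with 100 WT reads, had none in prde-1 and 2 in prg-1. These 5 piRNAs were chosen after their values were seen.

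How abundant the residual piRNAs are in WT was not used to choose them, and no difference between the mutants was detectable in it. Of the chromosome IV piRNAs without 21ur-1430, 46 of the 195 seen in prde-1 (23.6%) and 29 of the 95 seen in prg-1 (30.5%) had no WT read, against 50.6% of the 9632 listed there. Their median WT levels were 1.66 and 0.920 RPM. Counted by reads, 27.5% of the prde-1 reads (95% exact binomial interval 22.3% to 33.3%) and 29.4% of the prg-1 reads (20.8% to 39.3%) fell on piRNAs with no WT read. On piRNAs with over 30 WT reads, the most abundant group, fell 10.2% (6.82% to 14.5%) and 12.7% (6.96% to 20.8%) of the mutant reads, against 37.4% of the WT reads. The intervals of prde-1 and prg-1 overlapped in each of the 5 abundance groups. Since the groups were formed on WT reads, the WT shares are fixed by that choice. Spearman's rho between the WT level and the pooled reads over the 9632 piRNAs was 0.117 in prde-1 and 0.0581 in prg-1, where nearly all values are 0.

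**Figure D2:**
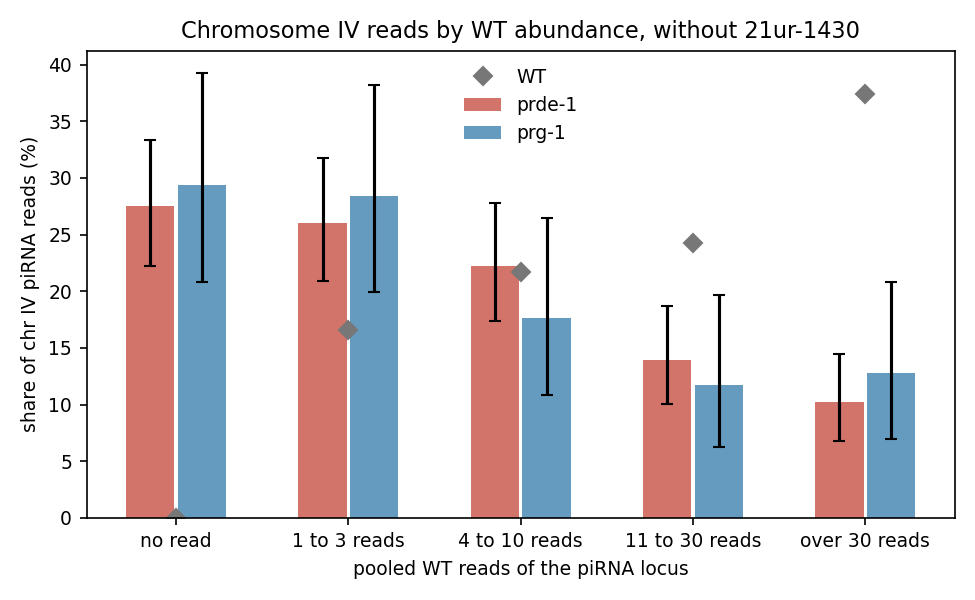
Share of chromosome IV piRNA reads without 21ur-1430 (y axis, %) by the number of pooled WT reads of the locus (x axis), with bars for prde-1 (265 reads) and prg-1 (102 reads), exact 95% binomial intervals as error bars and diamonds for WT. The bars of both mutants lie close together in each group, and their share on loci with over 30 WT reads (10.2% and 12.7%) is below that of WT (37.4%). The WT shares are fixed by grouping the loci on WT reads.

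The annotated host of these chromosome IV piRNAs gave the same order of the genotypes. Loci outside coding genes summed to 15.9 ± 2.37 RPM in prde-1 and 33.2 ± 8.51 RPM in prg-1, those in coding introns to 5.65 ± 0.836 and 19.9 ± 3.92 RPM, and those in coding exons to 2.65 ± 0.0364 and 6.67 ± 0.676 RPM (SD, n = 2 each). In each of the 3 groups both prg-1 libraries lay above both prde-1 libraries by the authors' scaling. The pooled ratio of prg-1 to prde-1 was 3.60 in introns (95% counting interval 2.29 to 5.55) and 2.15 outside coding genes (1.56 to 2.91), and these intervals overlapped.

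Loci on chromosomes other than IV were a small part of the list and a large part of the piRNA reads in both mutants. They make up 109 of the 9742 listed piRNAs, and 32 of them (29.4%) had a read in either mutant, against 282 of 9633 (2.93%) on chromosome IV. Of the 22 piRNAs with reads in both genotypes, 12 lay on these chromosomes. By annotation, 19 of the 32 lay in a coding exon, 11 of them in sense and 8 in antisense, 2 lay in a coding intron, and 11 lay outside coding genes, 6 of these antisense to the exon of a long intergenic noncoding RNA (lincRNA). Coding exons held 53.2% of all 109 listed loci there and 59.4% of the 32, coding introns 14.7% and 6.25%, and loci outside coding genes 32.1% and 34.4%. The share of loci antisense to a lincRNA exon among the 109 was not counted. Together the loci summed to 143 and 145 RPM in prde-1 and to 144 and 149 RPM in prg-1, so that the libraries overlapped (ratio 0.983, pooled counting interval 0.861 to 1.13; exact permutation p = 0.667). By TMM rescaling this ratio was 7.11. In WT the loci of this class summed to 85.6 and 90.9 RPM. The means of prde-1 and prg-1 were 163% and 166% of the WT level by the authors' scaling. As a sum these loci were thus not below WT in either mutant, unlike those of chromosome IV, but in prg-1 this rested on 21ur-9719. Without 21ur-9719 the class stood at 59.8 and 48.6 RPM in prg-1, below both WT libraries (75.2 and 74.5 RPM). Its mean without that locus was 72.4% of WT in prg-1 and 154% in prde-1, by the authors' scaling. The single loci were unlike: by the authors' scaling 21ur-9719 was higher in prg-1 and the rest, at 114.99 ± 1.27 RPM in prde-1 and 54.2 ± 7.94 RPM in prg-1 (SD, n = 2), was higher in prde-1.

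21ur-9719 (X 9072394 to 9072414, minus strand) lies antisense to an exon of linc-22. It stood at 28.5 and 29.6 RPM in prde-1 and at 84.6 and 100.02 RPM in prg-1. The level in prg-1 was thus 3.18-fold that in prde-1 with no overlap (pooled ratio 3.13, 95% counting interval 2.57 to 3.81), and it made up 40.2% of all prg-1 piRNA reads against 7.37% in prde-1, or 43.9% against 17.3% of the reads without 21ur-1430. On the log2(RPM + 1) scale the difference of prde-1 minus prg-1 was -1.63 (SE 0.27, limma adjusted p = 0.256), and TMM rescaling turned it to 1.17 (adjusted p = 0.140). The kin-3 libraries stood at 88.0 and 71.2 RPM and those of WT at 10.4 and 16.4 RPM. A second locus antisense to linc-22, 21ur-15566 (X 9071288 to 9071308), is also antisense to the snoRNA gene F47E1.19. It was much lower and did not separate the genotypes, at 1.87 and 0.535 RPM in prde-1 and 1.03 and 1.43 RPM in prg-1.

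Loci on chromosomes III and II lay the other way round. 21ur-10824 (III 2295350 to 2295370, minus strand), on the strand of the Y54F10BM.9 transcript and within its 3′ UTR, stood at 37.3 and 45.8 RPM in prde-1 and at 18.6 and 22.9 RPM in prg-1 (pooled ratio 2.05, 95% counting interval 1.44 to 2.99). 21ur-10492 (II 13247294 to 13247314, minus strand), antisense to coding sequence of F15D4.5, stood at 42.2 and 35.8 RPM in prde-1 and at 15.5 and 11.4 RPM in prg-1 (pooled ratio 2.82, interval 1.86 to 4.505). At both loci all prde-1 values lay above all prg-1 values. The log2 differences were 0.97 (SE 0.20, limma adjusted p = 0.472) and 1.48 (SE 0.23, limma adjusted p = 0.228), and neither passed the threshold. In WT they stood at 11.98 ± 0.0907 and 16.8 ± 3.63 RPM (SD, n = 2 each). The listed piRNA 21ur-11898 is offset by 2 nt from 21ur-10824 on the same strand. It stood at 0.562 and 1.43 RPM in prde-1 and had no prg-1 read. How reads were divided between this pair is not stated, so its values are uncertain. 21ur-11898 was named after its values were seen.

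Values of 3 weaker loci overlapped between the genotypes. 21ur-10687 (II 13246773 to 13246793), antisense to coding sequence of F15D4.5 as 21ur-10492 is, stood at 3.18 and 3.92 RPM in prde-1 and at 4.12 and 2.86 RPM in prg-1, with overlap. 21ur-9823 (III 1371141 to 1371161), which faces an exon of linc-24 on the other strand, stood at 4.12 and 2.85 RPM in prde-1 and at 4.12 and 2.86 RPM in prg-1, and 21ur-12864 (II 1255983 to 1256003), sense to the 5′ UTR of clec-119, at 2.81 and 3.92 and at 2.06 and 2.86 RPM. The pooled ratios of these 3 loci ran from 0.966 to 1.41, with counting intervals from as low as 0.405 to as high as 5.45, so at this depth the authors' scaling left both no difference and one of several fold within the intervals. TMM rescaling gave 21ur-10687 and 21ur-9823 as higher in prde-1 (log2 differences 2.52 and 2.47, limma adjusted p = 0.0244 each).

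Other loci had reads in prde-1 and few or none in prg-1. 21ur-15587 (I 13781329 to 13781349, plus strand), placed in a ccct-1 intron and opposite a pseudogene exon, stood at 6.74 and 6.60 RPM in prde-1 and had no prg-1 read, at least 3.71-fold higher against the floor of 3 pooled prg-1 reads (lower 95% counting limit of the ratio 2.94). 21ur-15569 begins 2 nt downstream of it on the same strand and had 6 and 12 reads in prde-1 and 2 and 0 in prg-1 (means of 1.63 and 1.03 RPM). How the authors' counting divided reads between them is not stated, so the values of the pair are uncertain; the second was named after its values were seen. 21ur-8285 (II 3373666 to 3373686), antisense to an exon of linc-11, stood at 3.37 and 2.85 RPM in prde-1 and was at least 1.73-fold higher than the prg-1 floor (lower counting limit 1.33). 21ur-13684 (V 16319095 to 16319115) lies antisense to an exon of linc-59 and to a pseudogene exon. It stood at 4.12 and 3.57 RPM in prde-1 and at 3.09 and 0 RPM in prg-1 (pooled ratio 2.14, interval 0.682 to 10.8). Its log2 difference of 1.26 was 0.24 without prg-1 replicate 2 and 2.27 without prg-1 replicate 1. Of the named loci, only 21ur-10895 (V 12386732 to 12386752, in no annotated gene) joined 21ur-9719 in standing higher in every prg-1 library, at 7.22 and 2.86 RPM against 1.31 and 0.713 RPM in prde-1 (pooled ratio of prg-1 to prde-1 5.36, interval 1.96 to 14.2), and TMM rescaling turned its direction. Its log2 difference of -1.50 was -0.95 without prg-1 replicate 1.

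**Figure D3:**
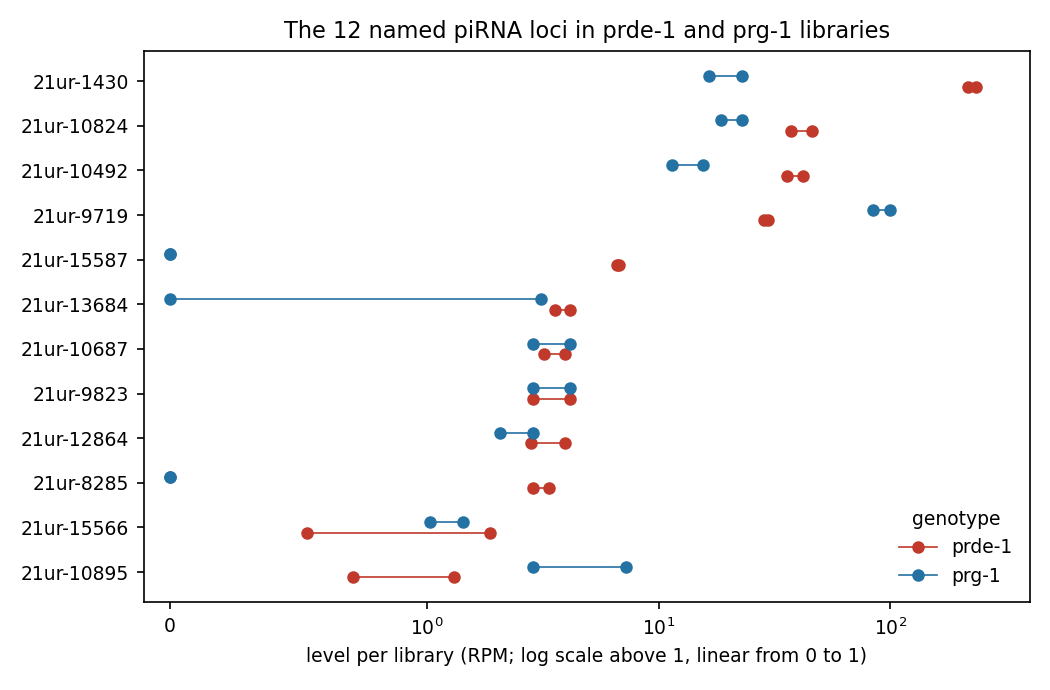
Level in each prde-1 and prg-1 library (x axis, RPM, log above 1 and linear below) of the 12 loci named by rule (y axis); each point is a library and the line joins the 2 of a genotype. 21ur-1430 lies highest in prde-1 (226 RPM) and 21ur-9719 highest in prg-1 (92.3 RPM); TMM rescaling would turn the direction of 21ur-9719 and 21ur-10895.

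Reads were concentrated on these loci in both genotypes. The 10 highest piRNAs of prde-1 held 91.2% of its piRNA reads, and 9 of them lay outside chromosome IV. The 10 highest of prg-1 held 71.7%, and 8 loci were on both lists. The 9 loci with a read in all 4 libraries were 21ur-1430, 21ur-10824, 21ur-10492, 21ur-9719, 21ur-10687, 21ur-9823, 21ur-12864, 21ur-10895 and 21ur-15566.

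**Figure D4:**
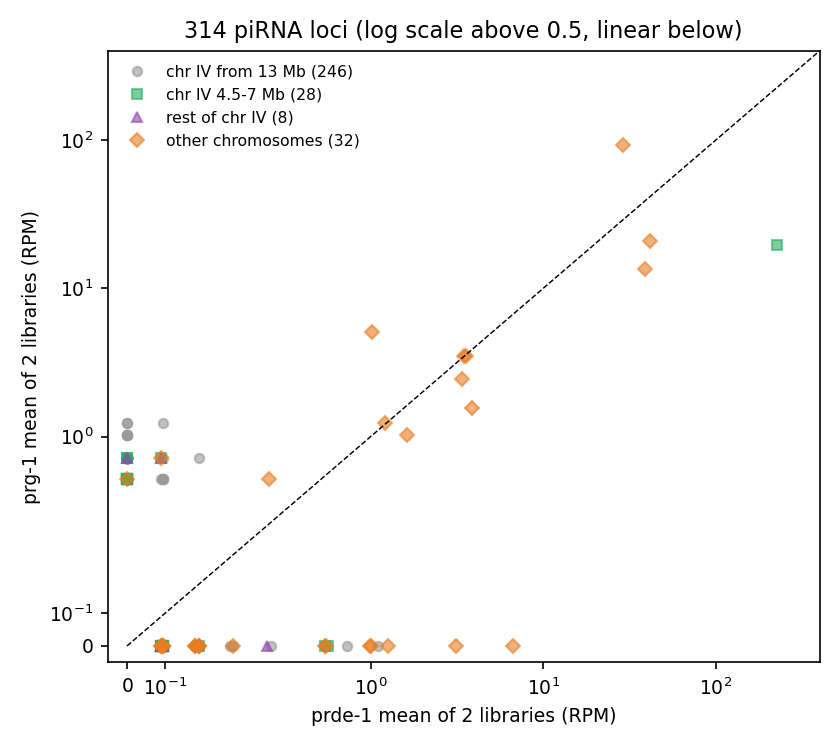
Mean level of the 314 piRNAs in prde-1 (x axis) and prg-1 (y axis), in RPM on axes that are log above 0.5 and linear below, coloured by position; the dashed line marks equal levels. Most loci lie on an axis, seen in 1 genotype alone, and the 22 seen in both are led by 21ur-1430 (226 against 19.7 RPM) and 21ur-9719 (29.0 against 92.3 RPM).

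Of the 695 piRNAs tested, none was called different between prde-1 and prg-1. Limma was fitted on log2(RPM + 1) over all 8 libraries for the 695 piRNAs that averaged 1 RPM or more, and 0 of them (0%) passed an adjusted p of 0.05, with 9 at an unadjusted p under 0.05. Of these 695, 599 had no read in either mutant. Their difference was 0 in advance, so they could not be called and only added to the number adjusted over. The other 96 belonged to the 314, of which 218 were too low to be tested. All 9 with an unadjusted p under 0.05 were among these 96, and none of the 9 is a call. Of the 9, 5 stood higher in prde-1 (21ur-1430, 21ur-15587, 21ur-10492, 21ur-10824 and 21ur-4817) and 4 in prg-1 (21ur-3180, 21ur-4052, 21ur-9719 and 21ur-10895). Those of chromosome IV from 13 Mb, 21ur-4817, 21ur-3180 and 21ur-4052, had at most 3 reads over the 4 libraries. Other settings made calls: among the 13 piRNAs that averaged 1 RPM or more in the 4 libraries of these genotypes, 5 (38.5%) were called, of which 4 stood higher in prde-1 (21ur-1430, 21ur-15587, 21ur-10492 and 21ur-10824) and 1 in prg-1 (21ur-9719). With only these genotypes fitted, which also narrowed the piRNAs tested, 5 of 96 were called (5.21%), and with TMM rescaling 7 of 695 (1.01%). The 13 and the 96 were selected on values of the compared libraries, so their calls are no independent support.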

How the data were processed

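Small RNAs were, per the labels' protocols, extracted with Trizol, column-enriched, treated with the polyphosphatase PIR-1, ligated, amplified and sequenced. Cutadapt 1.18 and Bowtie 1.2.1.1 were used per the submitters' processing notes; for their settings, the build and multiply matching reads, nothing is stated in the sources at hand. The authors deposited 1 table of 9742 piRNAs in RPM. All positive values were whole multiples of the smallest in their library (100%, tolerance 0.01 reads), which gave reads and scaling totals. The prg-1 libraries hold 75 and 46 positive values, fewer than the 100 required here to accept recovered reads for a count model, so the planned edgeR test was not run. Recovered reads serve for read numbers, TMM factors and counting intervals, which cover counting error only.

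Positions were matched to the piRNA genes of Ensembl release 115 (WBcel235) for 9620 piRNAs, and the other 122 keep the table's names. Where a piRNA was listed with several positions, only the first was used for its chromosome, position group and host. Limma 3.58.1 (R 4.3.3, trended prior, Benjamini-Hochberg adjustment, threshold 0.05, two-sided) was fitted on log2(RPM + 1) over all 8 libraries. Fold changes on that scale understate those of low piRNAs. The fit was also run on simulated reads in which unchanged piRNAs had the same level in all genotypes. These data are unlike that, so the simulation does not measure power for this comparison. Pooled ratios carry exact conditional 95% intervals. Sums were compared by exact permutation tests. Alternatives were other pseudocounts and filters, TMM (edgeR 4.0.16), only both genotypes fitted, the replicate block and leaving out each library. Named loci were the 10 highest of each genotype, those read in all 4 libraries and any called. Members and lists were chosen with earlier results of these data known. No genome sequence was used, so piRNA sequences and the upstream motif were not analysed here.

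Nothing in the labels says that the 2 libraries of a genotype are separate cultures; p-values then measure only the spread between samples, possibly a technical one. A chi-square test of their reads gave p = 0.109 for prde-1 (17 piRNAs with at least 10 reads) and p = 0.155 for prg-1 (4 piRNAs). Their totals and values differ, so they were kept as 2 libraries.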

Additional observations from a re-analysis of the deposited data

How the results depend on the processing

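Calls of single piRNAs depended on the setting. Against 0 in either direction, limma called 1 higher in prde-1 and 1 higher in prg-1 with pseudocount 0.1, 4 and 1 among 13 piRNAs filtered on the 4 libraries (38.5%), 4 and 1 with only prde-1 and prg-1 fitted (96 piRNAs with a read there, 5.21%), and 7 and 0 with TMM rescaling (1.01%). Leaving out each library gave 0 higher in prde-1 and 0 to 2 higher in prg-1. The cause was not tested; the settings with 13 and 96 piRNAs adjust over fewer, and the latter also estimates the spread from 4 libraries. Pseudocount 5, no filter and the replicate block gave 0 and 0. Replicate differences of prde-1 and prg-1 gave r = 0.0358 over 695 piRNAs. As 599 of these had no read in the 4 libraries, this r cannot decide whether same-numbered libraries are paired. The main fit used no pairing, because the labels give none.

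TMM rescaling gave sums of prde-1 over prg-1 of 12.6 for all listed piRNAs, 5.89 without 21ur-1430, 2.90 on chromosome IV without 21ur-1430 and 7.11 on other chromosomes. It turned the log2 difference of 21ur-9719 to 1.17, of 21ur-10895 to 0.48 and of 21ur-9823 to 2.47. The TMM factors are estimated from the piRNA reads of these libraries. They were 0.186 and 0.150 for prde-1 and 1.16 and 1.24 for prg-1. Of these reads 21ur-1430 held 57.3% in prde-1. Chromosome IV without it stood at 0.185% of WT in prde-1 and 0.457% in prg-1. Whether TMM suits such libraries was not tested. Leaving out 1 library, the same sums ranged from 1.71 to 1.78, 0.792 to 0.841, 0.356 to 0.471 and 0.969 to 0.998, the ratio of piRNAs detected at equal depth from 0.543 to 0.679, and the log2 differences of 21ur-10687 from -0.18 to 0.23 of 21ur-9823 from -0.21 to 0.20, of 21ur-13684 from 0.24 to 2.27 and of 21ur-10895 from -2.05 to -0.95. The planned edgeR test was not run. Depth in prg-1 limits low loci: a piRNA with no prg-1 read may stand at up to 1.80 RPM.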
